A study of Oryza sativa Indica Group with 36 samples.

Results

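The 4 genes described here, BGIOSGA033329, BGIOSGA001631, BGIOSGA031510 and BGIOSGA033322, are annotated by the study as glutathione S-transferases, and they are 4 of the 43254 genes of the deposited tables. They were taken by identifier from the study's heatmap of antioxidant genes, which was drawn from genes differentially expressed in these same libraries, so their response to cold is not independent evidence about the family. Glutathione S-transferases join the tripeptide glutathione to electrophilic compounds, which are then moved to the vacuole, and some members also reduce lipid peroxides. In plants they form a large family, often in clusters of similar copies, and they are best known for the detoxification of herbicides and of products of oxidative stress. Glutathione also serves the ascorbate-glutathione cycle, in which hydrogen peroxide is reduced at the expense of ascorbate and the oxidized ascorbate is then restored. Chilling of rice seedlings is known to raise reactive oxygen species, whose products these enzymes act on.

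RNA was measured by RNA-seq in stems and leaves of hydroponically grown seedlings at the four-leaf stage, with 3 biological replicates in each of 12 groups. DC907 (prefix B in the group names) is a cold tolerant near-isogenic line, and 9311 (prefix A) is the cold sensitive indica cultivar that the labels give as WT. T1 and T3 were 1 and 3 days of cold stress at 8 ℃, H1 and H3 were 1 and 3 days of recovery at room temperature after that cold, and CK was not cooled. The groups were BT1, BT1H1, BT1H3, BT3, BT3H1, BT3H3 and BCK for DC907, and AT1, AT1H1, AT3, AT3H1 and ACK for 9311.

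Total counts per library ranged between 10176660, in BT1 replicate 3, and 18789555 (median 16621963 over 36 libraries). The 6 libraries labelled AT3 or AT3H1 stood apart from the other 9311 libraries. Of the genes that separated the cultivars in the other groups, a set chosen after the values were seen, 82.1% to 96.2% were on the DC907 side in these 6 libraries, against 5.81% to 29.5% in the 9 libraries of ACK, AT1 and AT1H1. In the 21 DC907 libraries the share was 68.9% to 98.7%. The 6 libraries are therefore called the libraries labelled AT3 and AT3H1, and counts are given with and without them. None of the 4 glutathione S-transferase genes was among the genes that separated the cultivars. Since stems and leaves were sequenced in bulk, fewer cells of a type and less RNA per cell cannot be told apart.

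The 4 genes did not share 1 pattern. BGIOSGA033329 and BGIOSGA001631 were high in the cold and lower after rewarming, except in the libraries labelled AT3H1. BGIOSGA031510 was low in the cold and high after rewarming. Its libraries labelled AT3H1 (103 to 254 FPKM) were above those labelled AT3 (2.51 to 54.3 FPKM), a change that was not called. BGIOSGA033322 was highest in some uncooled plants and lowest after recovery, and in the cold of DC907 it lay within the range of BCK. Their levels are given in FPKM, the authors' fragments per kilobase of gene length, scaled to the library total, so that genes can be compared. The lengths implied by the deposited values were similar, at 702 bp for BGIOSGA033329, 681 bp for BGIOSGA001631, 726 bp for BGIOSGA031510 and 732 bp for BGIOSGA033322. Ranks were taken among the 26526 genes with a mean of at least 1 FPKM in at least 1 group. Of these, 97.1% had a lower mean FPKM over the 36 libraries than BGIOSGA031510, 88.0% had a lower mean than BGIOSGA001631, 67.4% than BGIOSGA033329 and 65.1% than BGIOSGA033322. The highest group mean was 6.07 times the lowest for BGIOSGA001631, 13.4 times for BGIOSGA031510, 30.3 times for BGIOSGA033329 and 735 times for BGIOSGA033322.

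**Figure D1:**
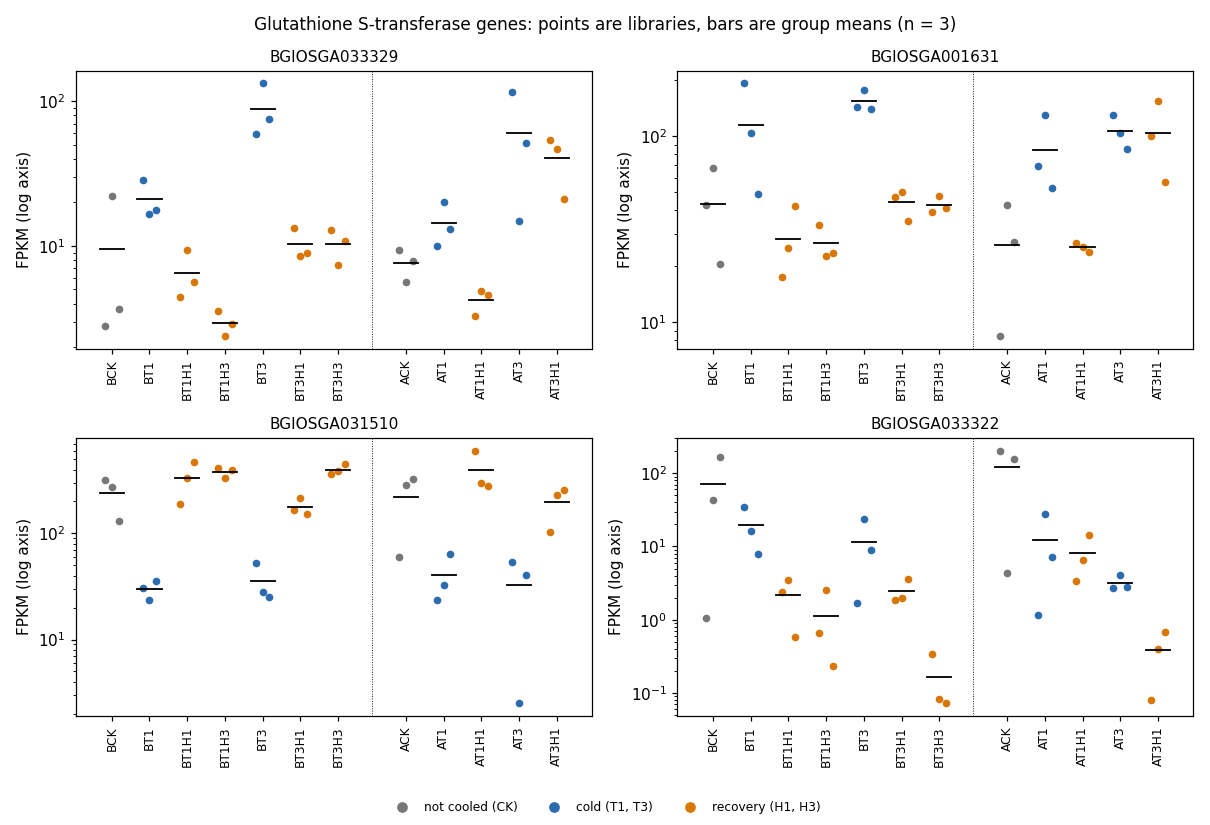
FPKM of the 4 glutathione S-transferase genes (log axis) in the 7 groups of DC907 on the left and the 5 groups of 9311 on the right, in order of treatment; each point is a library and each bar the mean of 3. BGIOSGA031510 lay between 23.6 and 53.2 FPKM in the 6 cold libraries of DC907, below all its other DC907 libraries, and BGIOSGA033322 spanned 1.05 to 166 FPKM in BCK alone.

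Cold and recovery were first compared with the uncooled plants of the same cultivar. A gene was called at an adjusted p under 0.05 (Benjamini-Hochberg over all genes tested) in the quasi-likelihood test of edgeR, and all 4 genes passed the filter on low counts in every comparison. After 1 day of cold in DC907 (BT1 against BCK), 1 of the 4 genes fell and none rose, where 22.8% of all genes tested were called. After 3 days (BT3 against BCK), 2 rose and 1 fell, with 33.9% of all genes called. After 1 day in 9311 (AT1 against ACK), 2 rose and none fell, with 30.5% called. In the libraries labelled AT3, 1 rose and 1 fell relative to ACK, with 19.8% called. The median absolute log2 fold change of the 4 genes was 1.62 in BT1, 2.71 in BT3, 2.07 in AT1 and 2.88 in the libraries labelled AT3, against 1.02, 1.06, 1.10 and 1.14 over all genes tested. The 4 genes were chosen as differentially expressed in these same libraries, so a larger change than over all genes was built into that choice.

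Recovered plants were compared with the same uncooled plants, where smaller shares of all genes were called than in the cold. None of the 4 was called in BT1H1 and in BT1H3, where edgeR called 0% of all genes, although 6545 and 6969 genes had an unadjusted p under 0.05 and DESeq2 called 5138 and 5318. DESeq2 called BGIOSGA033322 in both (adjusted p = 0.000377 and 6.18e-05), as did edgeR with all 36 libraries in 1 fit (adjusted p = 0.00824 and 0.00663). By edgeR none was called in AT1H1, where 0.00878% of all genes were called, or in BT3H1, where 7.4% were, while DESeq2 called BGIOSGA033322 in both. In BT3H3 1 gene fell, BGIOSGA033322, with 18.1% of all genes called. In the libraries labelled AT3H1, 1 rose and 1 fell relative to ACK, with 14.3% called. The median absolute log2 fold change of the 4 genes was 0.88 in BT1H1, 1.38 in BT1H3 and 0.85 in AT1H1. Over all genes tested the median was 0.67, 0.63 and 0.56 there. In BT3H1, BT3H3 and the libraries labelled AT3H1 the 4 genes had 0.60, 0.36 and 2.39, against 0.69, 0.76 and 0.88. In all, 11 of the 40 tests against the control were called, or 7 of them without the libraries labelled AT3 and AT3H1. All 6 comparisons of DC907 share the BCK libraries, and all 4 of 9311 share the ACK libraries. Each cultivar had 1 uncooled group, while the treated groups were sampled on different days. Treatment and seedling age therefore cannot be told apart in the comparisons with the control.

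**Figure D2:**
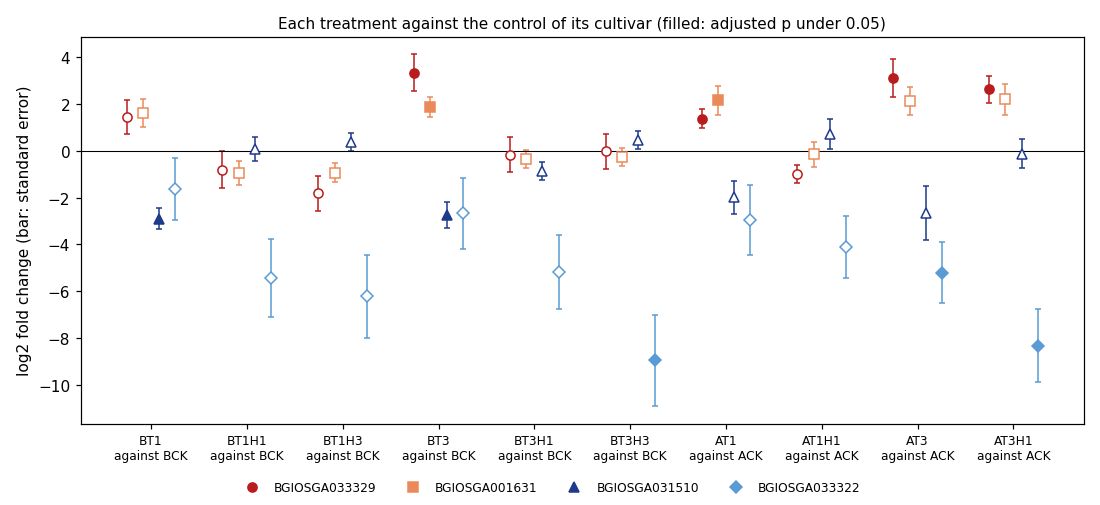
Log2 fold change of each treatment against the control of its cultivar (points, with the standard error as bars) for the 4 glutathione S-transferase genes; filled symbols have an adjusted p under 0.05 in edgeR's quasi-likelihood test, 3 libraries per group. BGIOSGA033329 and BGIOSGA001631 lay above 0 in BT1, BT3, AT1 and the libraries labelled AT3 and AT3H1, and BGIOSGA033322 lay below 0 in all 10 comparisons.

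The return to room temperature was then compared with the cold that came before it. In BT1H1 against BT1, 1 of the 4 genes rose and 3 fell, where 34.7% of all genes were called. The same count of 1 rising and 3 falling was found in BT1H3 against BT1 (44% of all genes called), BT3H1 against BT3 (47.9% called) and BT3H3 against BT3 (51.8% called). In all 4 of these comparisons the gene that rose was BGIOSGA031510. In AT1H1 against AT1, 1 rose and 2 fell, with 47.6% of all genes called. Between the libraries labelled AT3H1 and AT3, only BGIOSGA033322 was called, as fallen, with 11.7% of all genes called. In all, 20 of the 24 tests of rewarming were called, or 19 of 20 without the libraries labelled AT3 and AT3H1. These tests are not independent, since BT1H1 and BT1H3 share the BT1 libraries and BT3H1 and BT3H3 share the BT3 libraries. The median absolute log2 fold change of the 4 genes was 2.77 in BT1H1, 3.25 in BT1H3, 2.31 in BT3H1, 3.26 in BT3H3, 2.20 in AT1H1 and 1.51 in those labelled AT3H1, against 0.97 to 1.06 over all genes tested. As the 4 genes were chosen by their changes in these same libraries, this contrast with all genes is not independent evidence.

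**Figure D3:**
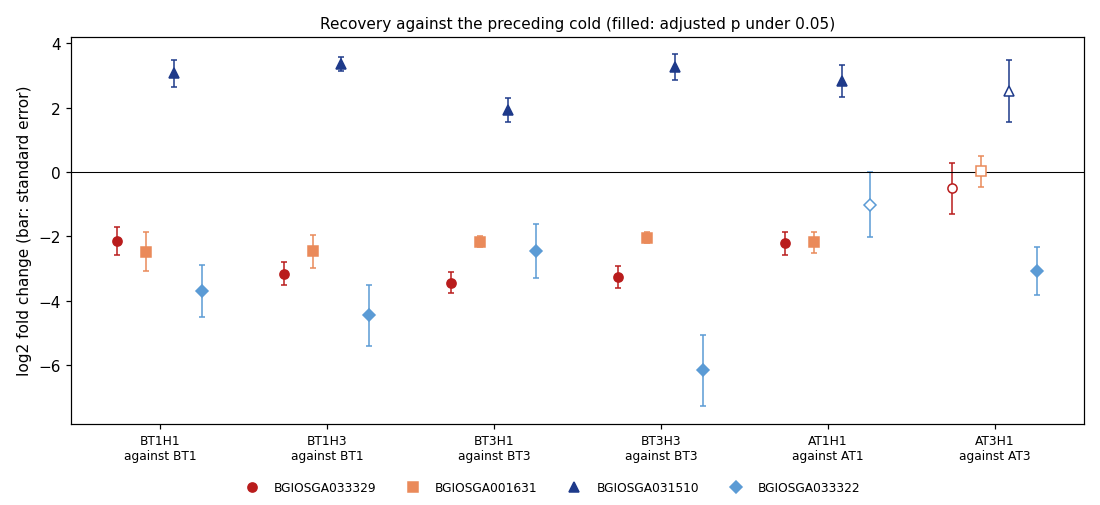
Log2 fold change of each recovery group against the preceding cold group (points, with the standard error as bars) for the 4 glutathione S-transferase genes; filled symbols have an adjusted p under 0.05 in edgeR's quasi-likelihood test, 3 libraries per group. BGIOSGA031510 lay between 1.93 and 3.35 in the 5 comparisons without the libraries labelled AT3, while BGIOSGA033329 lay between -3.44 and -2.15 there.

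BGIOSGA033329 had the largest rise of the 4 genes in the cold, after 3 days. In BT3 it had 59.0, 132.8 and 75.0 FPKM, against 2.78, 22.3 and 3.66 FPKM in BCK. All BT3 libraries were above all BCK libraries, and BCK replicate 2 was well above the other BCK libraries. Its log2 fold change was 3.33 (SE 0.77, edgeR adjusted p = 0.0209). Without BCK replicate 2 it was 4.63, and the call was lost without BCK replicate 3 (2.95), BT3 replicate 2 (3.04) or BT3 replicate 3 (3.44). Calls over all genes were 5981, 4200 and 928 in those fits, against 7898 with no library left out. After 1 day BT1 had 28.6, 16.6 and 17.8 FPKM, which overlapped with BCK through that 1 library. At 1.43, the log2 fold change was not called (SE 0.73, edgeR adjusted p = 0.186), but without BCK replicate 2 it was 2.72 and called. BT3 itself was above BT1 in every library, and BGIOSGA033329 was the only 1 of the 4 genes called between the lengths of cold, where 17.5% of all genes were called. The log2 fold change of BT3 against BT1 was 1.97 (SE 0.36, edgeR adjusted p = 0.0171), and the call was lost without BT1 replicate 2 (1.84) or BT3 replicate 3 (2.08).

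In 9311 BGIOSGA033329 rose after 1 day of cold. AT1 had 10.02, 20.1 and 13.1 FPKM, against 9.33, 5.59 and 7.92 FPKM in ACK. The ranges did not overlap but lay close to each other. On the log2 scale the fold change was 1.35 (SE 0.40, edgeR adjusted p = 0.0458), and the call was lost when any 1 of the 6 libraries was left out, at values of 1.13 to 1.53. The libraries labelled AT3 had 116, 14.9 and 51.3 FPKM, and those labelled AT3H1 had 54.2, 46.9 and 21.0 FPKM. Both were above ACK in every library, with replicate 2 low among those labelled AT3. The log2 fold changes were 3.10 (SE 0.80, edgeR adjusted p = 0.0412) and 2.61 (SE 0.58, edgeR adjusted p = 0.0364). The call for AT3 remained only without AT3 replicate 2 (3.60) and that for AT3H1 only without ACK replicate 2 (2.40) or AT3H1 replicate 3. With BCK in place of ACK neither was called (edgeR adjusted p = 0.098 and 0.106).

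After recovery BGIOSGA033329 was below every library of the preceding cold in all groups except the libraries labelled AT3H1. In BT1H1 it had 4.46, 9.42 and 5.61 FPKM and in BT1H3 3.56, 2.38 and 2.88 FPKM, all below the lowest BT1 library. In BT3H1 it had 13.4, 8.58 and 8.92 FPKM and in BT3H3 12.8, 7.44 and 10.8 FPKM, all far below BT3. The levels in BT3H1 and BT3H3 were within the range of BCK only through BCK replicate 2 (22.3 FPKM). They were above the other BCK libraries (2.78 and 3.66 FPKM). Without BCK replicate 2 the log2 fold change against BCK was 1.14 in BT3H1 and 1.23 in BT3H3, neither called (edgeR adjusted p = 0.111 and 0.0988). AT1H1 had 3.26, 4.91 and 4.59 FPKM, below every library of AT1 and of ACK. Relative to the preceding cold, the log2 fold change was -2.15 in BT1H1 (SE 0.42, edgeR adjusted p = 0.0109), -3.15 in BT1H3 (SE 0.36, edgeR adjusted p = 0.00154) and -3.44 in BT3H1 (SE 0.33, edgeR adjusted p = 0.00085). It was -3.26 in BT3H3 (SE 0.33, edgeR adjusted p = 0.00065) and -2.22 in AT1H1 (SE 0.36, edgeR adjusted p = 0.00254). These 5 calls held when any 1 library was left out. The libraries labelled AT3H1 overlapped with those labelled AT3 (log2 fold change -0.51, SE 0.80, edgeR adjusted p = 0.692).

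BGIOSGA001631 was also higher in the cold, and its level in uncooled plants was above that of BGIOSGA033329 on average. BT3 had 144, 177 and 141 FPKM, against 42.5, 67.3 and 20.7 FPKM in BCK. The BT3 libraries were all above the BCK libraries and close to each other. The log2 fold change was 1.85 (SE 0.41, edgeR adjusted p = 0.0187), and the call was lost without BT3 replicate 1 (1.78), replicate 2 (1.84) or replicate 3 (1.93). BT1 had 193, 105 and 49.1 FPKM, a spread in which replicate 3, the library of lowest depth, overlapped with BCK. At 1.59, the log2 fold change was not called (SE 0.60, edgeR adjusted p = 0.0923), but it was called without BT1 replicate 3 (2.02), by DESeq2 (adjusted p = 0.0475) and by edgeR with all 36 libraries in 1 fit (adjusted p = 0.0185). BT3 and BT1 did not differ by the test (log2 fold change 0.31, SE 0.48, edgeR adjusted p = 0.676).

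In 9311 BGIOSGA001631 had 69.2, 131 and 53.0 FPKM in AT1, against 8.44, 42.7 and 27.1 FPKM in ACK. The ranges did not overlap, and ACK replicate 1 was the lowest of all 36 libraries. Its log2 fold change was 2.15 (SE 0.61, edgeR adjusted p = 0.04), which was called without ACK replicate 2 (2.61) and lost when any other library was left out, at values of 1.63 to 2.30. The libraries labelled AT3 had 130, 104 and 85.4 FPKM and those labelled AT3H1 had 101, 155 and 57.1 FPKM. All were above ACK, but neither difference was called, at 2.11 (SE 0.60, edgeR adjusted p = 0.0534) and 2.18 (SE 0.66, edgeR adjusted p = 0.0664). DESeq2 called both (adjusted p = 0.00821 and 0.0129), as did edgeR with all 36 libraries in 1 fit (adjusted p = 0.00161 and 0.00221). The order of the 12 groups by mean had a gap after BT3, BT1, AT3, AT3H1 and AT1, in that order. The lowest of these, AT1, did not overlap with the next group, BT3H1, while all other neighbours in the order overlapped.

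On rewarming BGIOSGA001631 fell in every comparison except that of the libraries labelled AT3H1. BT1H1 had 17.6, 25.1 and 42.0 FPKM and BT1H3 had 33.4, 22.7 and 23.7 FPKM, all below the lowest BT1 library. BT3H1 had 47.3, 50.1 and 35.0 FPKM, BT3H3 had 39.2, 47.6 and 41.3 FPKM and AT1H1 had 26.8, 25.5 and 23.9 FPKM. No library of these overlapped with the preceding cold. On the log2 scale the fold change was -2.47 in BT1H1 (SE 0.62, edgeR adjusted p = 0.0228), -2.46 in BT1H3 (SE 0.52, edgeR adjusted p = 0.00954), -2.17 in BT3H1 (SE 0.18, edgeR adjusted p = 0.000661), -2.05 in BT3H3 (SE 0.17, edgeR adjusted p = 0.000375) and -2.19 in AT1H1 (SE 0.33, edgeR adjusted p = 0.00188). The call in BT1H1 was lost without BT1 replicate 1 (-1.83), BT1 replicate 2 (-2.45), BT1H1 replicate 1 (-2.19) or BT1H1 replicate 2 (-2.35), and the other 4 held when any 1 library was left out. The libraries labelled AT3H1 and AT3 had a log2 fold change of 0.02 (SE 0.47, edgeR adjusted p = 0.982).

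BGIOSGA031510 had the highest group mean of the 4 genes in uncooled and in recovered plants and fell in the cold of DC907. BT1 had 30.7, 23.6 and 35.3 FPKM and BT3 had 53.2, 28.2 and 25.2 FPKM, against 317, 274 and 132 FPKM in BCK. Every cold library of DC907 was below every BCK library. The log2 fold change was -2.91 in BT1 (SE 0.45, edgeR adjusted p = 0.0118) and -2.75 in BT3 (SE 0.55, edgeR adjusted p = 0.0145). The call in BT1 was lost without BT1 replicate 1 (-2.97) or replicate 2 (-2.90), and that in BT3 without BT3 replicate 2 (-2.52) or replicate 3 (-2.52). Over all genes edgeR called 782 and 46 in those BT1 fits, against 5292 with no library left out. In those BT3 fits edgeR called 4200 and 928, against 7898. The lengths of cold did not differ by the test (0.21 in BT3 against BT1, SE 0.38, edgeR adjusted p = 0.718).

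In 9311 BGIOSGA031510 had 23.7, 32.7 and 64.3 FPKM in AT1, against 59.5, 285 and 323 FPKM in ACK. ACK replicate 1 was below the highest AT1 library, replicate 3, so the ranges overlapped. At -1.99, the log2 fold change was not called (SE 0.70, edgeR adjusted p = 0.0714), but it was called without ACK replicate 1 (-2.53), by DESeq2 (adjusted p = 0.0203) and by edgeR with all 36 libraries in 1 fit (adjusted p = 0.0138) or with at least 10 counts in every library (adjusted p = 0.0485). The libraries labelled AT3 had 54.3, 2.51 and 40.5 FPKM, all below ACK, with replicate 2 the lowest of all 36. Its log2 fold change was -2.66 with a wide error (SE 1.15, edgeR adjusted p = 0.142), called by DESeq2 (adjusted p = 0.0489) and by edgeR with all 36 libraries in 1 fit (adjusted p = 0.0027).

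After recovery BGIOSGA031510 was high again. BT1H1 had 189, 330.3 and 471 FPKM, BT1H3 had 410, 330.1 and 396 FPKM, BT3H1 had 166, 218 and 154 FPKM and BT3H3 had 361, 385 and 454 FPKM. AT1H1 had 604, 298 and 283 FPKM. Every one of these libraries was above every library of the preceding cold. On the log2 scale the fold change was 3.06 in BT1H1 (SE 0.42, edgeR adjusted p = 0.00423), 3.35 in BT1H3 (SE 0.22, edgeR adjusted p = 0.000794), 1.93 in BT3H1 (SE 0.38, edgeR adjusted p = 0.00718), 3.25 in BT3H3 (SE 0.40, edgeR adjusted p = 0.00114) and 2.82 in AT1H1 (SE 0.49, edgeR adjusted p = 0.00367). These 5 calls held when any 1 library was left out. The libraries labelled AT3H1 had 103, 231 and 254 FPKM, above all of those labelled AT3, but the log2 fold change of 2.52 was not called (SE 0.97, edgeR adjusted p = 0.125). Without AT3 replicate 2 it was 1.94 and called. BT1H3 and BT3H3 lay above every BCK library, while the other recovery groups overlapped with the uncooled plants. Relative to these plants no recovery group was called, with log2 fold changes between -0.85 in BT3H1 and 0.70 in AT1H1. In the order of the 12 groups by mean, BT3H1 was the lowest of the groups not in the cold and did not overlap with AT1, the next below it, and all other neighbours overlapped.

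BGIOSGA033322 varied most, between libraries of 1 group as well as between groups. BT1 had 34.5, 16.2 and 7.79 FPKM and BT3 had 1.71, 23.5 and 9.04 FPKM, against 1.05, 43.4 and 166 FPKM in BCK, which came from 13 to 2177 counts. Both cold groups lay within the range of BCK. AT1 had 1.15, 28.0 and 7.26 FPKM, against 204, 4.31 and 156 FPKM in ACK, from 53 to 2232 counts, and overlapped with it. BCK replicate 1 and ACK replicate 2 were as low as many treated libraries, and every comparison with a control rests on groups of this spread. None of these was called, with log2 fold changes of -1.65 in BT1 (SE 1.33, edgeR adjusted p = 0.383), -2.67 in BT3 (SE 1.52, edgeR adjusted p = 0.209) and -2.97 in AT1 (SE 1.49, edgeR adjusted p = 0.168), although that in AT1 was called by DESeq2 (adjusted p = 0.0472) and by edgeR with all 36 libraries in 1 fit (adjusted p = 0.0416). The libraries labelled AT3 had 2.75, 4.03 and 2.79 FPKM, below ACK in every library. The log2 fold change of -5.20 was called (SE 1.30, edgeR adjusted p = 0.0382), but it was lost when any 1 library other than ACK replicate 2 was left out, at -5.35 to -4.62, and with BCK as the control (edgeR adjusted p = 0.0756).

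In DC907 the group means of BGIOSGA033322 were lowest after recovery. BT1H1 had 2.42, 3.44 and 0.580 FPKM, BT1H3 had 0.650, 2.53 and 0.237 FPKM and BT3H1 had 1.88, 1.996 and 3.58 FPKM. These groups overlapped with BCK only through BCK replicate 1. BT3H3 had the lowest values, 0.340, 0.0829 and 0.0727 FPKM from 4, 1 and 1 counts, below all BCK libraries. Its log2 fold change against BCK was -8.94 (SE 1.95, edgeR adjusted p = 0.0305). The 6 counts of BT3H3 were 0.221% of the 2709 counts of BCK, with an exact 95% interval of 0.0809% to 0.481% that covers counting error only. The call was lost without BCK replicate 3 (-7.10) or BT3H3 replicate 1 (-9.89), 2 (-8.61) or 3 (-8.56). Over all genes 2234, 0, 4 and 0 were called in those fits, against 4095 with no library left out. The libraries labelled AT3H1 had 0.0797, 0.405 and 0.672 FPKM from 14 counts in all, below all ACK libraries. Their log2 fold change against ACK was -8.31 (SE 1.57, edgeR adjusted p = 0.0295), lost without ACK replicate 1 (-7.70), ACK replicate 3 (-8.10), AT3H1 replicate 1 (-7.91) or AT3H1 replicate 2 (-8.34).

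The remaining recovery groups of BGIOSGA033322 were not called against the control, at -5.42 in BT1H1 (edgeR adjusted p = 0.104), -6.22 in BT1H3 (edgeR adjusted p = 0.088), -5.19 in BT3H1 (edgeR adjusted p = 0.0878) and -4.10 in AT1H1 (edgeR adjusted p = 0.151). DESeq2 called all of these (adjusted p = 0.000377 in BT1H1, 6.18e-05 in BT1H3, 0.000237 in BT3H1 and 0.0034 in AT1H1), and edgeR with all 36 libraries in 1 fit called those of DC907 (adjusted p = 0.00824, 0.00663 and 0.0107) but not AT1H1 (adjusted p = 0.0573). Without BCK replicate 1 the changes in BT1H3 (-6.77) and BT3H1 (-5.75) were called, and without ACK replicate 2 that in AT1H1 (-4.65) was. Relative to the preceding cold, the gene fell in 5 of 6 comparisons. The log2 fold change was -3.69 in BT1H1 (SE 0.81, edgeR adjusted p = 0.0154), -4.45 in BT1H3 (SE 0.94, edgeR adjusted p = 0.00971), -2.45 in BT3H1 (SE 0.84, edgeR adjusted p = 0.0492) and -6.16 in BT3H3 (SE 1.11, edgeR adjusted p = 0.00421). Those in BT1H3 and BT3H3 held when any 1 library was left out. That in BT1H1 was lost without BT1 replicate 1 (-2.90), BT1 replicate 2 (-3.69) or BT1H1 replicate 1 (-3.76), and that in BT3H1 without any library other than BT3 replicate 1, at -2.84 to -1.52. The libraries labelled AT3H1 were lower than those labelled AT3 by a log2 fold change of -3.08 (SE 0.75, edgeR adjusted p = 0.0427), called also without AT3 replicate 2 (-2.94) and lost without any other library, at -3.56 to -2.68. AT1H1, with 3.41, 6.49 and 14.2 FPKM, overlapped with AT1 (-1.02, SE 1.00, edgeR adjusted p = 0.434).

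The balance between the genes that rose and BGIOSGA031510, which fell, differed with temperature inside each library, a description chosen after the values were seen. The ratio of BGIOSGA001631 to BGIOSGA031510 in FPKM was 1.39 to 6.27 in BT1, 2.71 to 6.29 in BT3 and 0.825 to 3.99 in AT1, against 0.134 to 0.246 in BCK and 0.0839 to 0.150 in ACK. It was 0.0759 to 0.0932 in BT1H1, 0.0597 to 0.0816 in BT1H3, 0.228 to 0.285 in BT3H1, 0.0910 to 0.124 in BT3H3 and 0.0443 to 0.0854 in AT1H1. The ranges of the cold groups thus lay above those of all uncooled and recovered groups of the same cultivar, apart from the libraries labelled AT3H1, with 0.225 to 0.976, next to 2.11 to 41.3 in those labelled AT3. The ratio of BGIOSGA033329 to BGIOSGA031510 was above 1 only in BT3, at 1.11 to 4.71, and in the libraries labelled AT3, at 1.27 to 5.96. Of the FPKM summed over the 4 genes, BGIOSGA031510 made up 12.8% ± 6.83 in BT3 and 88.2% ± 1.32 in BT3H3, against 65.2% ± 23.2 in BCK (SD, n = 3 each). This share also depends on BGIOSGA033322, so it does not measure the balance with the genes that rose alone. In BCK it was 87.2% in replicate 1, where BGIOSGA033322 had 1.05 FPKM, and 67.3% in replicate 2, where it had 43.4 FPKM. The share was lowest in BCK replicate 3, where BGIOSGA033322 had 166 FPKM. The sum itself was 290 ± 62.4 FPKM in BT3 and 453 ± 47.6 FPKM in BT3H3, against 364 ± 42.2 FPKM in BCK.

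**Figure D4:**
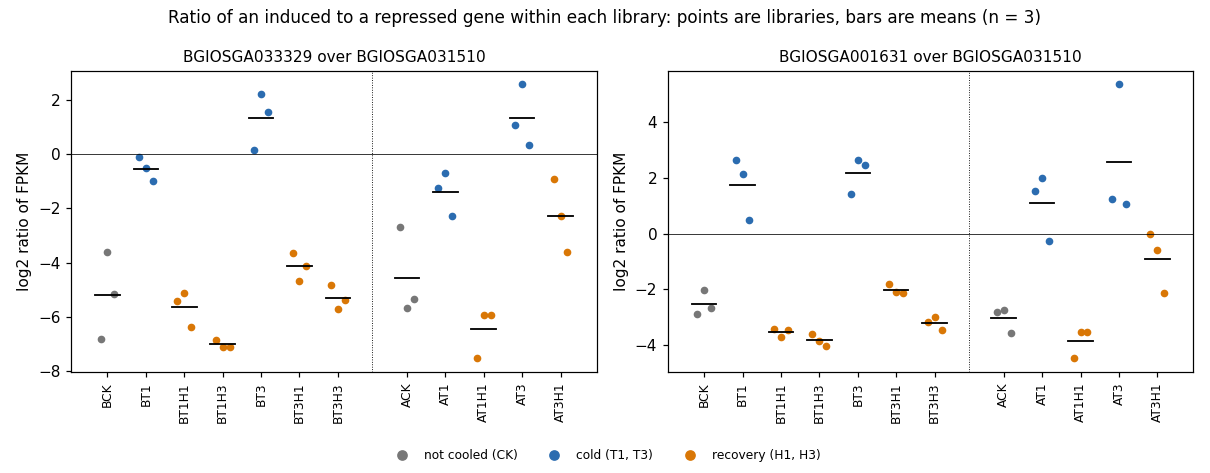
Log2 ratio of the FPKM of BGIOSGA033329 (left) and BGIOSGA001631 (right) to that of BGIOSGA031510 in each library (points) with the mean of 3 (bars), DC907 groups left of 9311 groups. For BGIOSGA001631 the mean was 2.19 in BT3 and -3.23 in BT3H3, against -2.53 in BCK.

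The cultivars were compared where the libraries followed their labels. In uncooled plants (BCK against ACK) none of the 4 genes was called, where 0.0439% of all genes were, and 489 genes had an unadjusted p under 0.05. The log2 fold changes of BCK against ACK were 0.30 for BGIOSGA033329 (SE 0.80), 0.81 for BGIOSGA001631 (SE 0.65), 0.22 for BGIOSGA031510 (SE 0.69) and -0.78 for BGIOSGA033322 (SE 1.68). After 1 day of cold (BT1 against AT1) none of the 4 was called either, where 0.0718% of all genes were, with 1574 genes at an unadjusted p under 0.05. The log2 fold changes there were 0.41 for BGIOSGA033329 (SE 0.36), 0.33 for BGIOSGA001631 (SE 0.54), -0.60 for BGIOSGA031510 (SE 0.41) and 0.60 for BGIOSGA033322 (SE 1.02). DESeq2 also called none of the 4 in both comparisons.

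The difference in response between the cultivars was tested directly, as the change from the control in DC907 minus that in 9311. At T1 none of the 4 genes was called, where 0.00403% of all genes were, and 1050 genes had an unadjusted p under 0.05. At T1H1 none was called, where 0% of all genes were, and 2146 genes had an unadjusted p under 0.05. DESeq2 called none of the 4 and, at T1H1, 221 genes in all. At T1 the differences in log2 fold change were 0.09 for BGIOSGA033329 (SE 0.88), -0.48 for BGIOSGA001631 (SE 0.93), -0.85 for BGIOSGA031510 (SE 0.85) and 1.31 for BGIOSGA033322 (SE 2.12). At T1H1 they were 0.17 (SE 0.90), -0.81 (SE 0.78), -0.66 (SE 0.89) and -1.34 (SE 2.01) for the same genes. With standard errors of 0.78 to 2.12, a difference between the cultivars of the sizes seen was not detectable with 3 libraries per group.

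Glutathione peroxidase (BGIOSGA016904), which reduces peroxides with glutathione or thioredoxin, and monodehydroascorbate reductase (BGIOSGA029182), which restores ascorbate from its radical, were the other genes of the pathway that the study names by identifier. Monodehydroascorbate reductase had 719, 881 and 780.0 FPKM in BT3, against 10.4, 164 and 6.27 FPKM in BCK. BCK replicate 2 was the highest BCK library here as it was for BGIOSGA033329 and BGIOSGA001631. Monodehydroascorbate reductase rose in BT3 (log2 fold change 3.92, SE 1.23, edgeR adjusted p = 0.0485), AT1 (5.06, SE 0.71, edgeR adjusted p = 0.00714) and the libraries labelled AT3 (5.29, SE 0.87, edgeR adjusted p = 0.0159) and AT3H1 (3.69, SE 0.93, edgeR adjusted p = 0.0442). In BT1 its log2 fold change was 2.87 (SE 1.14, edgeR adjusted p = 0.106). Without BCK replicate 2 these were 6.41 in BT3 and 5.37 in BT1, both called, and the call in BT3 was lost when any other library was left out, at 3.38 to 3.95. The call for monodehydroascorbate reductase in AT1 held without any 1 library, that in AT3 was lost without ACK replicate 3 (4.93), AT3 replicate 1 (5.11) or AT3 replicate 3 (5.10), and that in AT3H1 remained only without ACK replicate 2 (4.64) or AT3H1 replicate 3 (4.12). Glutathione peroxidase had 1127, 917 and 1090 FPKM in BT3, against 246, 287 and 101 FPKM in BCK. It rose in BT1 (1.70, SE 0.46, edgeR adjusted p = 0.0393), BT3 (2.33, SE 0.50, edgeR adjusted p = 0.0166), AT1 (2.89, SE 0.47, edgeR adjusted p = 0.00936) and the libraries labelled AT3H1 (2.26, SE 0.57, edgeR adjusted p = 0.0445), and was not called in those labelled AT3 (3.21, SE 0.99, edgeR adjusted p = 0.0643) except without AT3 replicate 2 (3.78). The call of glutathione peroxidase in BT1 was lost when any 1 library was left out, at 1.25 to 1.86, that in BT3 without BT3 replicate 1 (2.14) or 3 (2.32), and that in AT1 without ACK replicate 3 (2.72) or AT1 replicate 3 (2.65). In AT3H1 it remained only without ACK replicate 2 (2.67) or AT3H1 replicate 3 (2.56). On rewarming both genes fell in the 5 comparisons without the libraries labelled AT3, whichever 1 library was left out, the comparisons in which BGIOSGA033329 and BGIOSGA001631 fell too, and neither was called between the libraries labelled AT3H1 and AT3. In the library labelled AT3 replicate 2, glutathione peroxidase had 186 FPKM, against 1797 and 2101 FPKM in the other libraries of that label, and BGIOSGA033329 and BGIOSGA031510 were lowest in it as well.

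**Figure D5:**
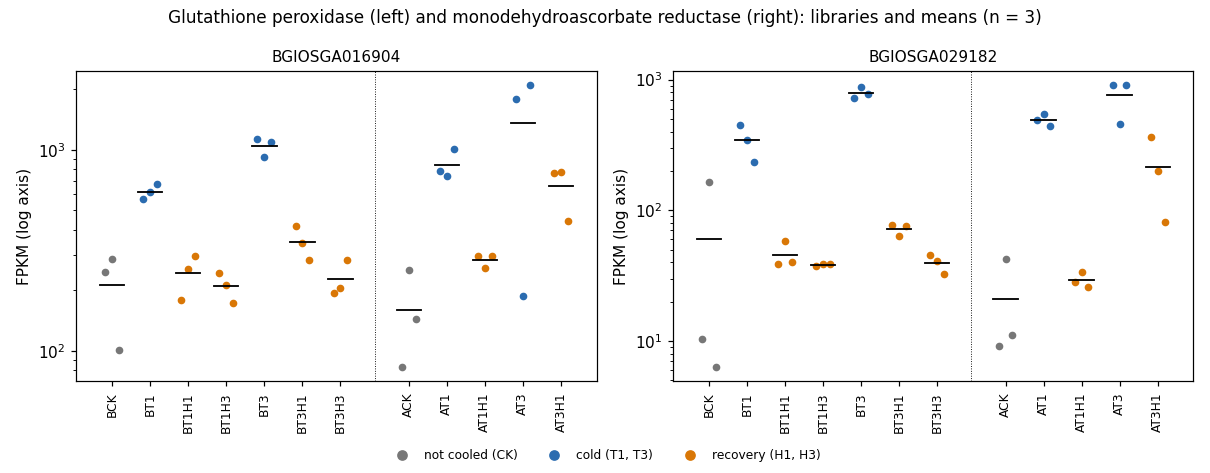
FPKM (log axis) of glutathione peroxidase and monodehydroascorbate reductase in each library (points) with the mean of 3 (bars), DC907 groups left of 9311 groups. Monodehydroascorbate reductase averaged 793 FPKM in BT3 and 39.6 FPKM in BT3H3, against 60.1 FPKM in BCK.

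The gene whose pattern was most like each of the 4 was found over the 36 libraries by Pearson's r of log2(FPKM + 1) among 26526 genes with a group mean of at least 1 FPKM. These values are a description over points that share groups and depth. For BGIOSGA033329 it was BGIOSGA011561 (r = 0.914), for BGIOSGA001631 the new gene Novel01505 (r = 0.897), for BGIOSGA031510 BGIOSGA027914 (r = 0.958) and for BGIOSGA033322 BGIOSGA003410 (r = 0.964). BGIOSGA003410 shared the spread among uncooled plants, with 0.423, 32.8 and 49.0 FPKM in BCK and 84.1, 2.36 and 42.7 FPKM in ACK, low in the same libraries as BGIOSGA033322. BGIOSGA027914 had 285, 235 and 56.1 FPKM in BCK and 26.0, 236 and 107 FPKM in ACK, with ACK replicate 1 low as for BGIOSGA031510. With a pseudocount of 0.1 the nearest gene changed for all but BGIOSGA031510, and over the 12 group means it changed for BGIOSGA031510 and BGIOSGA033329.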

How the data were processed

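RNA-seq was done on 36 libraries of stems and leaves (12 groups, 3 biological replicates each). HISAT2, Cufflinks and DESeq are named in the submitters' processing notes, and reads were mapped to the Ensembl Plants indica genome. Both deposited tables of the authors were used, raw gene counts for tests and FPKM for levels. Treatment of reads shared by similar gene copies, and of strand, is not given in the sources used here, so counts of this multigene family may be split between copies. Every column was mapped to a sample by its label, and 0 were left unmapped.

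Counts were tested with edgeR 4.0.16 (R 4.3.3) by the quasi-likelihood test with TMM, filterByExpr and Benjamini-Hochberg adjustment over all genes, at an adjusted p under 0.05, with 6 libraries per fit and 12 for the cultivar difference. The test was checked on simulated data. Named were the 4 listed genes, the other pathway genes the study gives by identifier, and the gene most like each of the 4. The members and lists were chosen with earlier results of these data known. The identifiers matched 0 entries of the reference table, so tissue markers, coordinates and sequences were not used here. Alternatives were DESeq2 1.42.0, size factors by median ratio, testing unfiltered genes, a minimum of 10 counts per library, 1 fit of all 36 libraries, a replicate block, BCK set against the libraries labelled AT3 and AT3H1, and leaving out each library. Leaving out the comparisons of those libraries was added after the data were seen. Likeness was measured on log2(FPKM + 1).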

Additional observations from a re-analysis of the deposited data

How the results depend on the processing

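Of the 84 log2 fold changes of the 4 genes, 32 were called, 16 of these in every fit that left out 1 library, and none of the 32 changed direction under any alternative. Against the control 11 calls were made in all, 21 with DESeq2, 19 with all 36 libraries in 1 fit and 7 without the comparisons of the libraries labelled AT3 or AT3H1, an alternative added after the data were seen. DESeq2 and the 1 fit also called more of all genes. In AT3 against ACK the total went from 4542 to 9003 and 12651, and in BT3 against BCK from 7898 to 10769 and 11263. Calls of the 4 genes against the control numbered 5 to 13 with 1 library left out, lowest without ACK replicate 3 (5) or ACK replicate 1 (6). The number called over all genes moved as well. In AT3 against ACK it was 0 without ACK replicate 3, AT3 replicate 1 or AT3 replicate 3, and 6652 without AT3 replicate 2. A lost call is therefore not by itself a trait of these genes. With the replicate number as a block 4 calls were made against the control, 17 of 20 on rewarming and 0 of 1 between the lengths of cold. The block fits called 0 of all genes in BT1H1, BT1H3, BT3H1 and BT3H3 against BCK and in AT1, AT1H1 and AT3 against ACK. They called 1457 in BT1, 7215 in BT3 and 1551 in AT3H1 against the control, and 244 in BT3 against BT1. On rewarming they called 0 in AT3H1 against AT3 and 6116 to 10107 elsewhere. The call between the lengths of cold was made in 0 to 1 gene with 1 library left out, 0 without BT1 replicate 2 or BT3 replicate 3. In no comparison was every correlation of same-numbered deviations above 0.1, so the main fits used no pairing by replicate number. Single correlations ranged from -0.58, in BCK against ACK, to 0.56, in BT3 against BCK. With 3 libraries per group this check cannot exclude pairing. On rewarming the other alternatives gave 16 to 21 calls. Of the counts between cultivars, all stayed at 0.

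The changes of direction were all in values that were not called. With the replicate block, BGIOSGA001631 had 0.064 in AT1H1 against ACK and -0.10 in AT3H1 against AT3, BGIOSGA031510 had 0.14 in AT3H1 against ACK, and BGIOSGA033329 had -0.29 in BCK against ACK, 0.36 in BT3H1 against BCK and 0.52 in BT3H3 against BCK. That last value was 0.00033 without the filter and 0.0045 with all 36 libraries in 1 fit. With 1 library left out, BGIOSGA033329 had -1.22 to 0.54 in BT1H1 against BCK, -0.55 to 1.14 in BT3H1 against BCK, -0.41 to 1.23 in BT3H3 against BCK, -0.99 to 0.38 in AT3H1 against AT3, -1.11 to 0.68 in BCK against ACK, and -0.30 to 1.45 at T1 and -0.20 to 1.55 at T1H1 for the cultivar difference in change. The highest or lowest of these came without BCK replicate 2 in all but that of AT3H1. BGIOSGA001631 had -0.57 to 0.35 in AT1H1 against ACK, -0.21 to 0.40 in AT3H1 against AT3, -0.075 to 0.88 in BT3 against BT1 and -0.21 to 0.72 in BT1 against AT1. BGIOSGA031510 had -0.34 to 0.46 in BT1H1 against BCK, -0.60 to 0.29 in AT3H1 against ACK, -0.29 to 0.43 in BT3 against BT1 and -0.23 to 0.64 in BCK against ACK. BGIOSGA033322 had -2.36 to 0.085 in BT1 against BCK, -1.71 to 0.34 in AT1H1 against AT1, -0.059 to 2.01 in BT1 against AT1 and -1.96 to 0.48 at T1H1 for the cultivar difference in change. The cause was not tested. Precision is limited by 3 libraries per group, and counts of BGIOSGA033322 below 10 limit its lowest levels.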
